A study of Mus musculus with 16 samples.

Results

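The small leucine-rich proteoglycans described here are 10 genes, Dcn, Bgn, Aspn, Fmod, Lum, Prelp, Omd, Ogn, Epyc and Chad, of 19505 genes measured on the arrays. They were chosen by gene symbol, and each had 1 probe set, so that the rule of taking the brightest left no choice. The arrays hold RNA of mouse spinal discs, taken from the soft, gel-like core, the nucleus pulposus (NP), and from the annulus fibrosus (AF), whose fibrous and cartilage-like layers ring that core. The 8 mice were female and 3 to 4 months old, and each gave 1 NP array and 1 AF array, with lumbar and caudal discs pooled. The 4 conditional knockout animals (cKO) were AcanCreERT2Sox9fl/fl: both Sox9 copies carry loxP sites, and a tamoxifen-inducible Cre is driven from Acan, the aggrecan gene, which is active in cartilage-like cells. The 4 control animals (CTR) were Sox9fl/fl with no Cre named. The cKO animals received tamoxifen on 2 consecutive days and were sampled 5 days after the first of these injections. No injection is named for the CTR animals, so that drug and genotype cannot be told apart. The groups are NP cKO, NP CTR, AF cKO and AF CTR, each with 4 arrays numbered as replicates 1 to 4, and NP and AF with 1 number and 1 genotype come from the same animal.

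Small leucine-rich proteoglycans are secreted proteins whose curved leucine-rich repeat domain binds to the surface of collagen fibrils, and many carry chondroitin, dermatan or keratan sulfate chains. They set the diameter and spacing of fibrils, and several of them hold growth factors such as TGF-beta in the matrix. Tendon, annulus and cartilage are rich in them, and SOX9 is the transcription factor that directs many cartilage matrix genes. Dcn (decorin) and Bgn (biglycan) are close relatives with chondroitin or dermatan sulfate chains, and Aspn (asporin) belongs with them by sequence but carries an aspartate-rich stretch in place of such chains. Fmod (fibromodulin), Lum (lumican), Omd (osteomodulin, also osteoadherin) and Prelp form the keratan sulfate class, in which Prelp has a basic end that binds heparan sulfate. Epyc (epiphycan) is known from growth cartilage and Ogn (osteoglycin) from bone and connective tissue. Chad (chondroadherin) is a cartilage protein that binds chondrocyte integrins and collagen.

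The values are log2 signals, so that a difference of 1 is a 2-fold difference of signal, and their median per array was 6.66 to 6.89. Negative control probe sets had a 95th percentile of 9.74 to 10.78 per array, and a gene is called not well above background in a group where each of its 4 arrays lay at or under that value. Signals of different probe sets are not on a common scale, so that levels are compared within a gene and never between genes. Sox9 itself was 9.69, 9.55, 10.12 and 9.65 in NP cKO replicates 1 to 4, against 16.19, 16.14, 16.79 and 15.95 in NP CTR. It was 12.10, 11.43, 12.99 and 12.44 in AF cKO, against 17.25, 17.45, 16.59 and 16.39 in AF CTR, so that it was low in every cKO array of both tissues. NP markers and notochordal genes averaged 12.42 to 12.59 in NP cKO arrays and 12.56 to 12.73 in NP CTR arrays, against 11.24 to 12.09 in AF cKO and 11.82 to 12.26 in AF CTR arrays. Fibrous tissue and tendon markers, 22 of 25 measured, averaged 7.03 to 7.34 in NP cKO and 6.84 to 7.09 in NP CTR arrays, against 9.61 to 11.09 in AF cKO and 9.23 to 10.22 in AF CTR arrays. For both lists the marker means of NP and AF arrays do not overlap, but single NP markers went either way. Of 14 NP and notochordal genes listed, 13 were measured. In CTR animals limma called 7 of these higher and 2 lower in the NP, beside 9.96% and 10.1% of all probe sets. In cKO animals it called 8 higher and 1 lower, beside 13.3% and 12.6%.

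Many of these genes lie side by side. In the RefSeq order of protein-coding genes of assembly GRCm38.p6, Ecm2, Aspn, Omd and Ogn are 4 neighbours on chromosome 13, Dcn, Lum, Kera and Epyc are 4 neighbours on chromosome 10, and Optc, Prelp and Fmod are 3 neighbours on chromosome 1. Bgn lies on chromosome X and Chad on chromosome 11, with no other family gene beside it. RefSeq windows of 250 bases before the annotated start were found for 8 of the 10 members. The windows of 4 members follow, all from the plus strand of GRCm38.p6. Chad, at chr11:94564797-94565046, is the member whose NP and AF signals lay farthest apart. Ogn, at chr13:49607765-49608014, and Aspn, at chr13:49544193-49544442, lie in the same run with Omd between them. The cKO and CTR arrays did not overlap in the NP for Ogn and in the AF for Aspn. Epyc has 2 windows, which both hold the core letters of SOX binding motifs, and the one at chr10:97643818-97644067 is printed. Capitals mark the letters AACAAT, a core that SOX proteins can bind, and TATAAA, a core promoter element, on either strand.
Chad: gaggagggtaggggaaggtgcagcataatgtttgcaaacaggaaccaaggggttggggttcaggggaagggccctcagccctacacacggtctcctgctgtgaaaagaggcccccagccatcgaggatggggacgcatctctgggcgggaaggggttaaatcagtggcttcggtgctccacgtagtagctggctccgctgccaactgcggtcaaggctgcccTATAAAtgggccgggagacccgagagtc
Ogn: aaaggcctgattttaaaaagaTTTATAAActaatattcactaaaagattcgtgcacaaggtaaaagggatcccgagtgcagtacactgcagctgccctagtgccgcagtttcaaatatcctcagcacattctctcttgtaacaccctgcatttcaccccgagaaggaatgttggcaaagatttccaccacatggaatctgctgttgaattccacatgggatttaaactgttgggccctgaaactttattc
Aspn: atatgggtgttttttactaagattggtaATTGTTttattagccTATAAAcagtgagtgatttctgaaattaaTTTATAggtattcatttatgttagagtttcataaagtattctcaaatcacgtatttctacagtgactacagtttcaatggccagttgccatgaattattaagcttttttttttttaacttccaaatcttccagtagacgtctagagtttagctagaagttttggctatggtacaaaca
Epyc: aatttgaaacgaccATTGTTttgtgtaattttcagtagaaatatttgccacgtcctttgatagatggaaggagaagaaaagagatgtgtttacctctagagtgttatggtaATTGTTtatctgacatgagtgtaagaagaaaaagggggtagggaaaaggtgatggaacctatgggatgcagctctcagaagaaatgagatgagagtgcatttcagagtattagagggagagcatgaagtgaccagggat
The Chad window has TATAAA at 28 to 23 bases before the start. In Ogn 2 overlapping matches of TATAAA, 1 on each strand, lie 229 to 222 bases before the start. Aspn has AACAAT on the opposite strand at 222 to 217 bases and TATAAA at 207 to 202 and, on the opposite strand, at 178 to 173 bases. The printed Epyc window has AACAAT on the opposite strand at 236 to 231 and at 139 to 134 bases. The other Epyc window has 3 matches of AACAAT, also on the opposite strand. Over the members, 3 of 8 had AACAAT in a window (Prelp, Aspn and Epyc) and 3 of 8 had TATAAA (Ogn, Aspn and Chad). These counts are per member, over 9 windows in all. Of all 32851 windows of this length, counted per window, 9.42% hold AACAAT and 12.4% hold TATAAA. These matches are letters in a window and say nothing of binding.

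Dcn varied widely within the NP. Its signal was 7.39, 7.61, 14.12 and 18.97 in NP cKO replicates 1 to 4, against 6.18, 6.86, 10.65 and 6.67 in NP CTR. NP cKO replicate 4 reached the range of the AF and replicate 3 lay between the tissues, while NP cKO replicates 1 and 2 stayed among the NP CTR arrays, so that the NP groups overlap. In the AF it was 18.68, 19.92, 19.86 and 18.63 in cKO, against 17.70, 18.61, 18.62 and 16.15 in CTR. The AF groups barely fail to overlap, with the lowest AF cKO array at 18.63 and the highest AF CTR array at 18.62.

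Bgn, its close relative, was 12.17, 16.06, 11.70 and 14.90 in NP cKO, against 11.78, 10.53, 11.36 and 11.60 in NP CTR. Here replicate 2 was the highest NP cKO array and replicate 4 the next, and the groups overlap through replicate 3. In the AF, Bgn was 17.64, 18.38, 18.28 and 17.09 in cKO, against 17.93, 17.94, 17.21 and 16.91 in CTR, with overlapping groups and all 8 arrays above every NP array. Aspn, a decorin relative that binds collagen and TGF-beta, was 6.79, 6.07, 6.45 and 6.69 in NP cKO, against 5.94, 5.96, 7.21 and 5.93 in NP CTR, and was not well above background in either NP group. In the AF it was 10.45, 12.67, 11.78 and 10.17 in cKO, against 9.44, 10.10, 9.80 and 8.10 in CTR. Each AF cKO array lay above each AF CTR array, and 4 of 4 AF cKO arrays but 1 of 4 AF CTR arrays were above background.

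Among the keratan sulfate class, Fmod and Prelp were bright on every array of both tissues. Fmod, which binds collagen I and takes part in the crosslinking of fibrils, was 16.54, 17.72, 16.72 and 16.97 in NP cKO, against 17.68, 17.43, 17.47 and 17.15 in NP CTR. It was 17.93, 18.99, 18.20 and 17.21 in AF cKO, against 18.04, 17.92, 18.23 and 17.88 in AF CTR. Of the 4 NP cKO arrays 3 lay under all NP CTR arrays and replicate 2 lay over them, and in both tissues cKO and CTR overlap. Prelp was 14.84, 17.73, 15.74 and 16.71 in NP cKO, against 16, 15.82, 15.87 and 15.60 in NP CTR. NP cKO replicates 2 and 4 lay above all NP CTR arrays and replicate 1 below them, so that the cKO arrays spread to both sides of the narrow control group. In the AF, Prelp was 16.89, 18.52, 17.91 and 17.26 in cKO, against 18.20, 17.95, 17.34 and 16.81 in CTR, and the groups overlap.

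Lum, a regulator of fibril diameter, was 6.41, 6.24, 6.77 and 8.74 in NP cKO, against 6.73, 6.37, 6.90 and 6.74 in NP CTR, not well above background in either. In the AF it was 13.88, 12.97, 15.74 and 10.84 in cKO, against 13.42, 12.05, 9.62 and 11.43 in CTR, where 3 of 4 CTR arrays were above background. Its AF arrays spread widely within each genotype and the genotypes overlap. Omd, which binds mineral in bone, was 5.81, 5.67, 5.66 and 6.80 in NP cKO, against 4.96, 4.81, 5.05 and 4.72 in NP CTR. The NP groups do not overlap, yet all 8 values are in the range of negative control probe sets. In the AF, Omd was 12.04, 10.52, 12.40 and 11.66 in cKO, against 13.63, 12.79, 10.34 and 11.74 in CTR, with overlapping groups.

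Ogn was 12.36, 11.74, 12.15 and 11.67 in NP cKO, against 10.69, 10.66, 11.24 and 10.28 in NP CTR. Every NP cKO array lay above every NP CTR array, and unlike Omd the gene was above background on 4 of 4 NP cKO and 3 of 4 NP CTR arrays. In the AF, Ogn was 14.61, 14.16, 15.23 and 14.06 in cKO, against 14.47, 15.85, 14.80 and 14.62 in CTR, and the groups overlap. Epyc was 5.11, 5.18, 5.82 and 7.62 in NP cKO, against 5.68, 5.55, 4.84 and 5.42 in NP CTR, and 8.05, 8.73, 8.61 and 6.80 in AF cKO, against 9.90, 7.27, 6.34 and 6.25 in AF CTR. It was not well above background in any of the 4 groups.

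Chad was 5.61, 5.74, 8.24 and 13.06 in NP cKO, against 5.80, 6.70, 7.67 and 6.39 in NP CTR. Replicate 4 alone was above background in NP cKO. Replicates 1 and 2 lay below all NP CTR arrays and replicate 3 above them, so that the groups overlap. In NP CTR the gene was not well above background. In the AF, Chad was 18.89, 18.96, 19.30 and 19.03 in cKO, against 19.00, 19.42, 19.28 and 18.47 in CTR. The 8 AF values were close together, and they lie near the highest value that any probe set has on these arrays. For all 10 genes both AF means lay above both NP means, and within a tissue cKO and CTR, the neighbours in that order, were not called different for any of them.

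**Figure D1:**
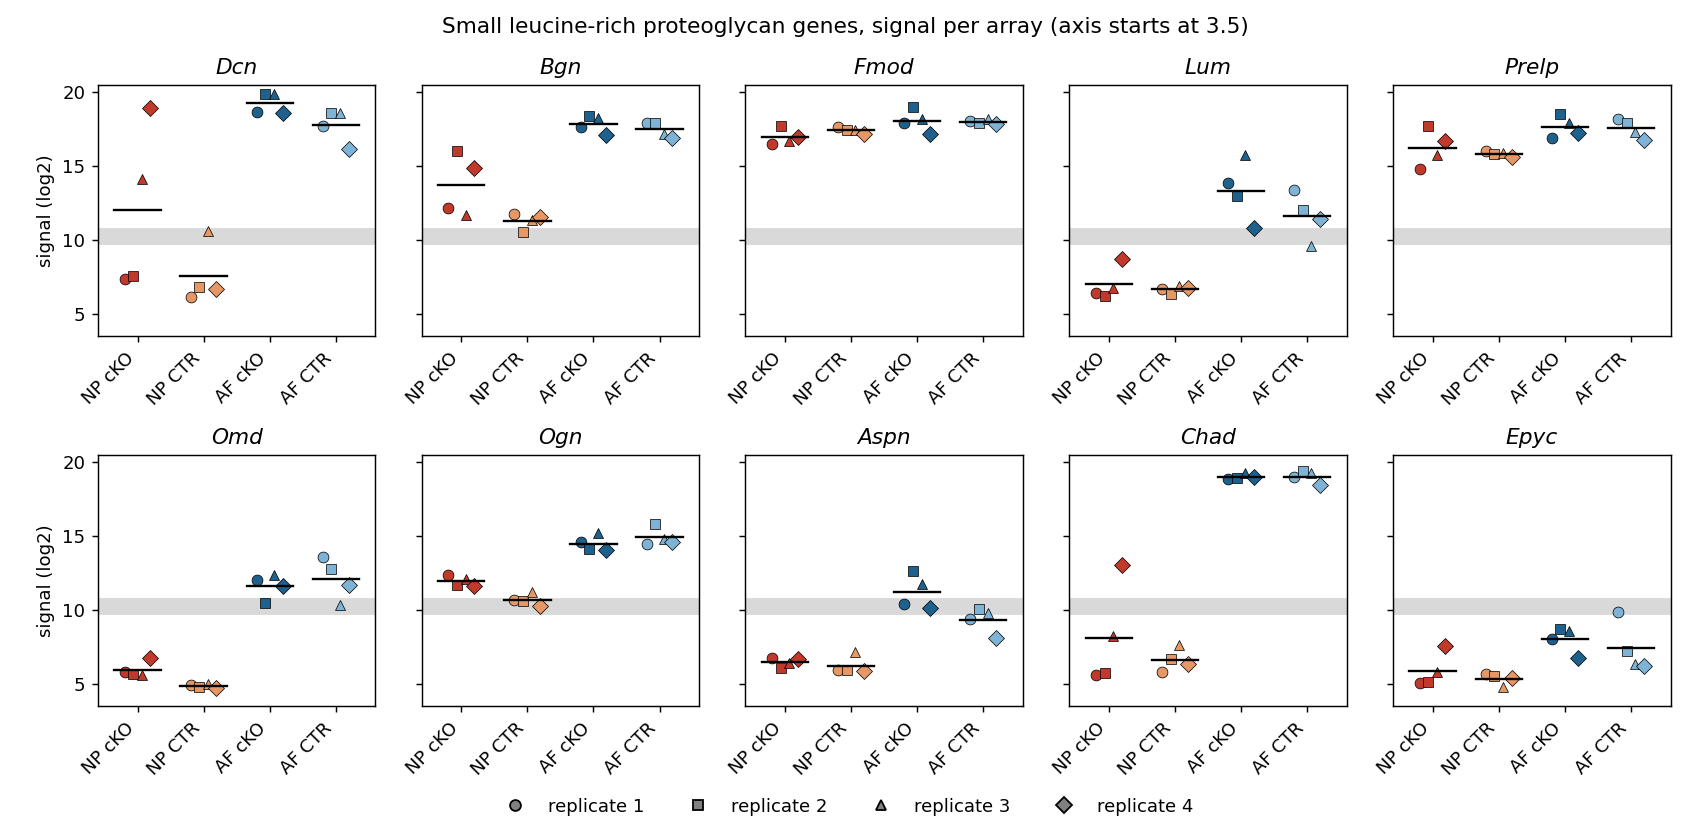
Log2 signal of each of the 10 genes on each array (vertical axis), by group (horizontal axis: NP cKO, NP CTR, AF cKO, AF CTR). Each symbol is 1 array with its shape giving the replicate number, bars are group means, and the grey band is the range over arrays of the 95th percentile of negative control probe sets, 9.74 to 10.78. Dcn in NP cKO runs between 7.39 and 18.97, whereas Chad in the 8 AF arrays stays between 18.47 and 19.42.

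The comparison of NP with AF in CTR animals asks how the family is divided between the tissues of the disc. All 10 genes had the lower signal in the NP, and 9 of 10 passed the limma test at an adjusted p under 0.05 over all 22206 probe sets. Of all probe sets, 10.1% were called lower in the NP. The median NP minus AF difference of the 10 genes was -4.58, beside 0.04 over all probe sets. In 10 of 10 genes each NP CTR array lay below each AF CTR array, as in 11.2% of all probe sets. In whole tissue, fewer cells of a type and less RNA per cell cannot be told apart.

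Chad had the largest of these 10 differences: its mean was 6.64 ± 0.78 in NP CTR and 19.04 ± 0.42 in AF CTR (SD, n = 4 each), a difference of -12.40 (SE 1.03, limma adjusted p = 1.6e-07). Because the NP signal was not well above background, this is given as at least 397-fold lower in the NP, against the lowest signal that counts as above background. Dcn averaged 7.59 ± 2.06 in NP CTR and 17.77 ± 1.16 in AF CTR, a difference of -10.17 (SE 1.74, limma adjusted p = 3.9e-04), with 1 of 4 NP CTR arrays above background. Bgn averaged 11.32 ± 0.55 in NP CTR and 17.50 ± 0.52 in AF CTR, a difference of -6.18 (SE 0.68), or 72.5-fold (limma adjusted p = 3.8e-06), with 3 of 4 NP CTR arrays above background. Dcn and Bgn, the relatives with chondroitin or dermatan sulfate chains, were both far lower in control NP.

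Aspn averaged 6.26 ± 0.64 in NP CTR and 9.36 ± 0.88 in AF CTR (SD, n = 4 each), with an adjusted p of 1.7e-04 in the limma fit, but no fold can be given, because only 1 of 4 AF CTR arrays was above background. Omd averaged 4.89 ± 0.15 in NP CTR and 12.13 ± 1.42 in AF CTR and was at least 3.29-fold lower in the NP (limma adjusted p = 2.4e-08). Lum averaged 6.68 ± 0.22 in NP CTR and 11.63 ± 1.58 in AF CTR and was at least 2.34-fold lower (limma adjusted p = 2.8e-04). These bounds are far smaller than the differences of the signals, which are -7.24 for Omd and -4.95 for Lum on the log2 scale.

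Ogn averaged 10.72 ± 0.40 in NP CTR and 14.93 ± 0.63 in AF CTR, a difference of -4.21 (SE 0.31), or 18.6-fold (limma adjusted p = 4.4e-08), with 3 of 4 NP CTR arrays above background. Epyc passed with -2.07 (SE 0.66, limma adjusted p = 0.0337), although no group was well above background, and the call was lost without AF CTR replicate 1, where the difference was -1.25 (adjusted p = 0.116), or without any of 5 other CTR arrays. Prelp and Fmod, the pair with bright NP signals, had the smallest differences. Prelp averaged 15.82 ± 0.17 in NP CTR and 17.58 ± 0.62 in AF CTR, a difference of -1.75 (SE 0.47), or 3.37-fold (limma adjusted p = 0.0128). Fmod averaged 17.43 ± 0.22 in NP CTR and 18.02 ± 0.16 in AF CTR, a difference of -0.58 (SE 0.30) that did not pass (limma adjusted p = 0.192).

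In cKO animals the same direction held for the family, and 10 of 10 genes were called lower in the NP than in the AF, where 12.6% of all probe sets were called lower. The median difference was -4.45, beside 0.07 over all probe sets. Groups did not overlap for 6 of the 10 genes (Bgn, Lum, Omd, Ogn, Aspn and Chad), as for 12.5% of all probe sets. Chad averaged 8.16 ± 3.48 in NP cKO and 19.05 ± 0.18 in AF cKO (SD, n = 4 each), a difference of -10.88 (SE 1.03, limma adjusted p = 9.7e-07). Dcn averaged 12.02 ± 5.58 in NP cKO and 19.27 ± 0.71 in AF cKO, a difference of -7.25 (SE 1.74, limma adjusted p = 0.00549), and the overlap of its groups comes from NP cKO replicate 4. Without NP cKO replicates 3 and 4 the Dcn difference was -11.77.

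Lum, at 7.04 ± 1.16 in NP cKO and 13.35 ± 2.03 in AF cKO, was at least 7.98-fold lower in the NP (limma adjusted p = 2.9e-05). Omd, at 5.99 ± 0.55 in NP cKO and 11.66 ± 0.81 in AF cKO, was at least 2.46-fold lower (limma adjusted p = 5.7e-07). Aspn, at 6.50 ± 0.32 in NP cKO and 11.27 ± 1.17 in AF cKO, was at least 1.88-fold lower (limma adjusted p = 2.2e-06). All 3 genes were not well above background in NP cKO and above it on all 4 AF cKO arrays.

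Bgn differed by -4.14 (SE 0.68, limma adjusted p = 2.8e-04), with 13.71 ± 2.11 in NP cKO and 17.85 ± 0.60 in AF cKO. Ogn differed by -2.54 (SE 0.31, limma adjusted p = 1.7e-05), with 11.98 ± 0.33 in NP cKO and 14.52 ± 0.53 in AF cKO. Both remained called in every alternative fit that was run. The 3 smallest differences did not: Prelp with -1.39 (adjusted p = 0.0368), Fmod with -1.09 (adjusted p = 0.0135) and Epyc with -2.11 (adjusted p = 0.0255 by limma). Without AF cKO replicate 2 all 3 lost the call, at adjusted p of 0.125 for Prelp, 0.0558 for Fmod and 0.0763 for Epyc.

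Within each animal the tissue difference can be read directly, since NP and AF of an animal share its number. For Dcn, NP minus AF was -11.29, -12.30, -5.74 and 0.33 in cKO animals 1 to 4, against -11.52, -11.74, -7.96 and -9.48 in CTR animals. Chad was -13.28, -13.21, -11.06 and -5.97 in cKO animals, against -13.20, -12.72, -11.61 and -12.07 in CTR animals. For both genes cKO animal 4 stood apart from the other 7 animals. Ogn was -2.25, -2.42, -3.08 and -2.40 in cKO animals, against -3.78, -5.19, -3.55 and -4.34 in CTR animals, so that the tissue gap was smaller in every cKO animal than in any CTR animal. In the test of that change, given with the other genotype results, Ogn did not pass.

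**Figure D2:**
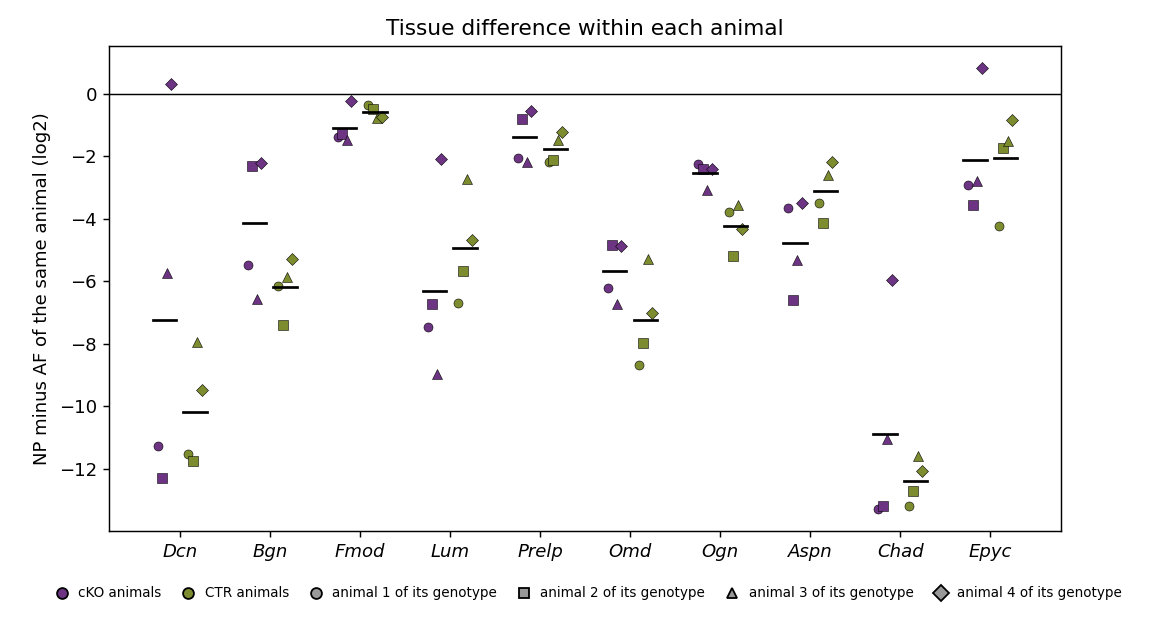
NP minus AF log2 signal of the same animal (vertical axis) for each of the 10 genes (horizontal axis), with cKO animals in purple and left of the CTR animals in olive. Symbols are single animals and bars are means of 4 animals. Nearly all values are under 0, and cKO animal 4 is above 0 for Dcn at 0.33 and for Epyc at 0.83.

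The comparison of cKO with CTR in the NP asks whether the family responds within days to the loss of Sox9. None of the 10 genes was called by limma, where 0.122% of all probe sets were called (27 probe sets, all of them lower in cKO). At an unadjusted p under 0.05 there were 4 genes, Ogn, Bgn, Dcn and Omd, all with higher values in NP cKO, beside 1018 of the 22206 probe sets. Of the 10 changes 9 were positive and the median was 0.83, beside 0.00 over all probe sets. The groups did not overlap for Ogn and Omd, 2 of 10 genes, as for 1.11% of all probe sets in the same direction.

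Ogn had the smallest p of the family: it averaged 11.98 ± 0.33 in NP cKO and 10.72 ± 0.40 in NP CTR (SD, n = 4 each), a difference of 1.26 (SE 0.31), or 2.4-fold, with an adjusted p of 0.245 in limma. In the alternative fits this difference ranged from 1.12 to 1.54 and its adjusted p from 0.0904 to 0.594 and it was called in none of them. Omd averaged 5.99 ± 0.55 in NP cKO and 4.89 ± 0.15 in NP CTR, a difference of 1.10 (SE 0.51, limma adjusted p = 1) that lies entirely within the background range, and no fold is given for it. Without NP cKO replicate 4 the Omd difference was 0.83. Ogn and Omd are neighbours on chromosome 13. Aspn, which lies beside Omd, differed by 0.24 (SE 0.49), also with both NP groups at background.

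For Bgn the difference was 2.39 (SE 0.68), or 5.24-fold, with means of 13.71 ± 2.11 in NP cKO and 11.32 ± 0.55 in NP CTR (SD, n = 4 each, limma adjusted p = 0.402). It was 1.99 without NP cKO replicate 4, 1.60 without replicate 2 and 0.62 without both. For Dcn the difference was 4.43 (SE 1.74), with means of 12.02 ± 5.58 in NP cKO and 7.59 ± 2.06 in NP CTR (limma adjusted p = 0.908). It was 2.11 without NP cKO replicate 4 and -0.09 without NP cKO replicates 3 and 4. Chad differed by 1.52 (SE 1.03, limma adjusted p = 1) and by -0.11 without NP cKO replicate 4. The SDs of 5.58 for Dcn and 3.48 for Chad in NP cKO are larger than the differences they accompany.

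The remaining differences were of the size of their errors. Prelp differed by 0.43 (SE 0.47), and by -0.06 without NP cKO replicate 2. Lum differed by 0.36 (SE 0.82) and by -0.21 without NP cKO replicate 4, and Epyc by 0.56 (SE 0.66) and by 0.00 without that array, both with signals not well above background in either NP group. Fmod was the only one with a negative value, -0.45 (SE 0.30). Prelp and Fmod were above background on all 8 NP arrays.

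In the AF the same comparison gave no call among the 10 genes either, where 0.0991% of all probe sets were called. Aspn and Lum had an unadjusted p under 0.05, beside 2359 of all 22206 probe sets. The median change was 0.21, beside -0.03 over all probe sets, with 8 of 10 values positive. Groups did not overlap for Aspn and Dcn, 2 of 10 genes, as for 1.79% of all probe sets in the same direction.

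Aspn averaged 11.27 ± 1.17 in AF cKO and 9.36 ± 0.88 in AF CTR (SD, n = 4 each), a difference of 1.91 (SE 0.49) with an adjusted p of 0.171 in limma. No fold is given, because 1 of 4 AF CTR arrays was above background. It was called only without AF cKO replicate 4, the lowest of its 4 cKO arrays, with a difference of 2.27 and an adjusted p of 0.0417. Lum averaged 13.35 ± 2.03 in AF cKO and 11.63 ± 1.58 in AF CTR, a difference of 1.72 (SE 0.82, limma adjusted p = 0.468). Dcn averaged 19.27 ± 0.71 in AF cKO and 17.77 ± 1.16 in AF CTR, a difference of 1.5 (SE 1.74, limma adjusted p = 0.788), whose error is wide because the fit shares 1 spread over all groups, the NP included. Some Dcn signals in AF cKO were close to the upper end of the scale. The values of the other 7 genes lay between -0.47 for Omd and 0.61 for Epyc.

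Chad differed by 0.01 (SE 1.03) between AF cKO and AF CTR, at a signal close to the upper end of the scale. Fmod differed by 0.06 (SE 0.30), Prelp by 0.07 (SE 0.47) and Bgn by 0.35 (SE 0.68). Ogn differed by -0.41 (SE 0.31), the opposite sign to its value in the NP. Of the 19 cartilage matrix genes measured on the same arrays 3 were called lower in AF cKO, as were 0.0856% of all probe sets. The median change of the 19 was -1.57, and 2 of the 19 changes were positive. The 3 called had log2 changes of -2.5 for Fgfr3 (SE 0.41, adjusted p = 0.0151), -2.0 for Acan (SE 0.34, adjusted p = 0.0218) and -3.48 for Ucma (SE 0.62, adjusted p = 0.0269 by limma). Ucma was above background on 1 of 4 AF cKO arrays.

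Markers of other cell types differed among the AF arrays. Skeletal muscle markers averaged 6.76, 10.12, 6.41 and 9.66 in AF cKO replicates 1 to 4, against 6.38, 6.61, 7.19 and 6.30 in AF CTR. Neutrophil and granulocyte markers averaged 11.48, 11.37, 12.65 and 9.06 in AF cKO, against 11.33, 7.90, 6.33 and 7.32 in AF CTR. Osteoclast markers averaged 7.84, 7.65, 10.12 and 6.71 in AF cKO, against 9.24, 8.04, 6.32 and 7.67 in AF CTR. Muscle markers were high in AF cKO replicates 2 and 4, which held the highest and the lowest Aspn signal of the 4 AF cKO arrays, 12.67 and 10.17. Lum was highest in AF cKO replicate 3, which had the highest neutrophil and osteoclast marker means. Their part in the AF values was not tested.

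Whether the change with genotype differed between the tissues was tested directly. None of the 10 genes passed, and 0% of all probe sets did. At an unadjusted p under 0.05 there were 4 genes, Ogn, Aspn, Omd and Bgn, beside 1496 of all probe sets. The cKO change in NP minus that in AF was 1.68 (SE 0.44) for Ogn, 1.57 (SE 0.72) for Omd, 2.04 (SE 0.95) for Bgn and -1.67 (SE 0.69) for Aspn, each with an adjusted p of 0.732 in limma. Ogn, Omd and Bgn thus had the larger value in the NP and Aspn in the AF, without a difference between tissues that held over all probe sets. Omd and Aspn were not well above background in either NP group, so that their values are not sizes of a change. The value of Bgn ranged from 0.27 to 2.71 in the alternative fits.

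**Figure D3:**
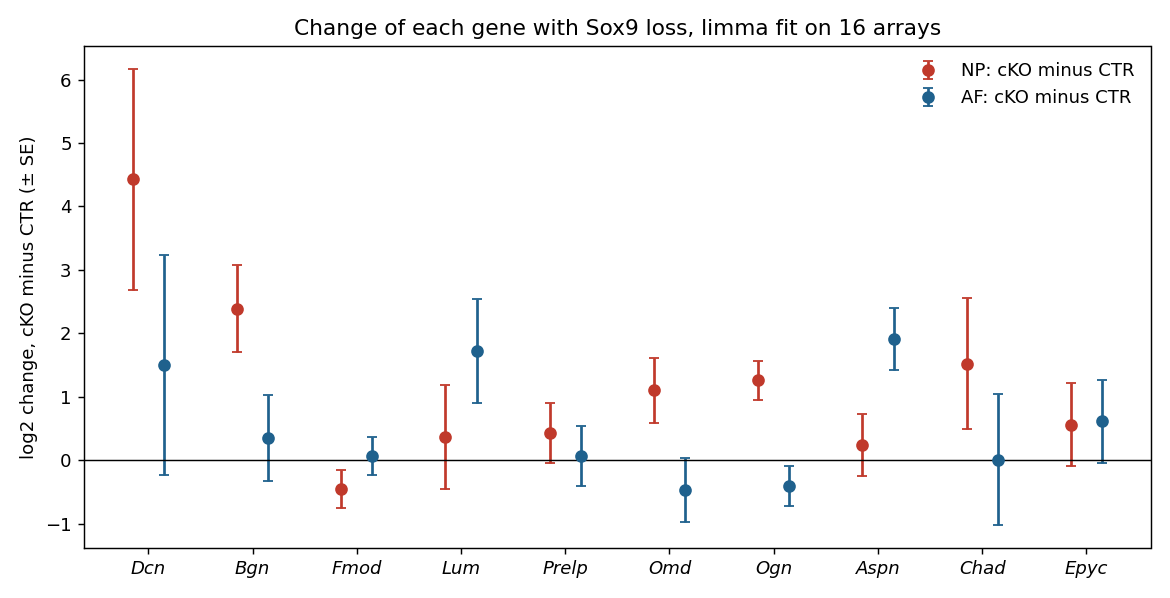
Log2 change, cKO minus CTR, of each of the 10 genes (horizontal axis) in the limma fit, with the NP in red left of the AF in blue and bars of 1 SE. None was called, the widest bar is that of Dcn (SE 1.74), and the smallest errors belong to Fmod (SE 0.30) and Ogn (SE 0.31).

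The NP cKO arrays did not carry the family as a block. In NP cKO, 5 of the 10 genes were highest in replicate 4 (Dcn, Lum, Omd, Chad and Epyc), 3 in replicate 2 (Bgn, Fmod and Prelp) and 2 in replicate 1 (Ogn and Aspn). Of the 10 genes, 8 in NP cKO replicate 4 lay above all 4 NP CTR arrays, and 6 lay over 1 above them on the log2 scale, as did 17.2% and 0.707% of all probe sets. In replicate 2 these were 5 and 2 genes, beside 19.2% and 1.06%. In replicate 3 they were 5 and 1, beside 19.7% and 0.131%, and in replicate 1 they were 3 and 1, beside 21.1% and 0.185%. Replicate 4 had the most members above the controls. Of its 6 that lay over 1 above them, Lum, Omd and Epyc were not well above background in either NP group. Of the members highest in replicate 2, Bgn at 14.90 and Prelp at 16.71 also lay above all NP CTR arrays in replicate 4, while Fmod at 16.97 did not.

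Of the 22 fibrous tissue and tendon markers measured, 9 lay above all NP CTR arrays in NP cKO replicate 4, and 2, Lox and Col5a2, lay over 1 above them, beside 17.2% and 0.707% of all probe sets. Their mean was 7.34 in that array, the highest of the 8 NP arrays, against 6.84 to 7.09 in NP CTR, while no AF array was under 9.23. Col1a1, the main fibrous collagen chain, was 8.87, 10.02, 9.19 and 9.31 in NP cKO, against 8.78, 9.32, 9.63 and 8.77 in NP CTR, while no AF array was under 15.35. Col1a2 was 9.09, 6.98, 8.99 and 9.39 in NP cKO, against 7.21, 9.02, 9.06 and 7.56 in NP CTR. No AF array was under 16.47 for Col1a2. Lox, which crosslinks collagen, was 5.87, 7.97, 5.58 and 8.62 in NP cKO, against 5.86, 5.48, 5.89 and 5.50 in NP CTR, highest in replicates 2 and 4. Lox and Col5a2 were not well above background in either NP group.

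Of the 19 cartilage matrix genes, 6 in NP cKO replicate 4 lay above all NP CTR arrays and 3 lay over 1 above them: Comp, Cytl1 and Cnmd. Of these, Cnmd was not well above background in either NP group. Comp, a collagen-binding protein of cartilage and tendon, was 6.76, 6.49, 6.84 and 11.53 in NP cKO, against 6.28, 6.53, 7.25 and 6.27 in NP CTR. Cytl1, a secreted cartilage protein, was 6.17, 5.45, 7.63 and 12.45 in NP cKO, against 7.43, 7.92, 8.54 and 8.15 in NP CTR. Both were high in the array where Chad was high, and AF arrays held at least 15.09 for Comp and 16.12 for Cytl1. In NP cKO replicates 1, 2 and 3, 1, 0 and 0 of the 19 cartilage genes lay above all NP CTR arrays. The list averaged 7.91, 7.74, 7.95 and 8.89 in NP cKO, against 8.46 to 8.73 in NP CTR. The part of AF or cartilage tissue in these NP values was not tested.

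**Figure D4:**
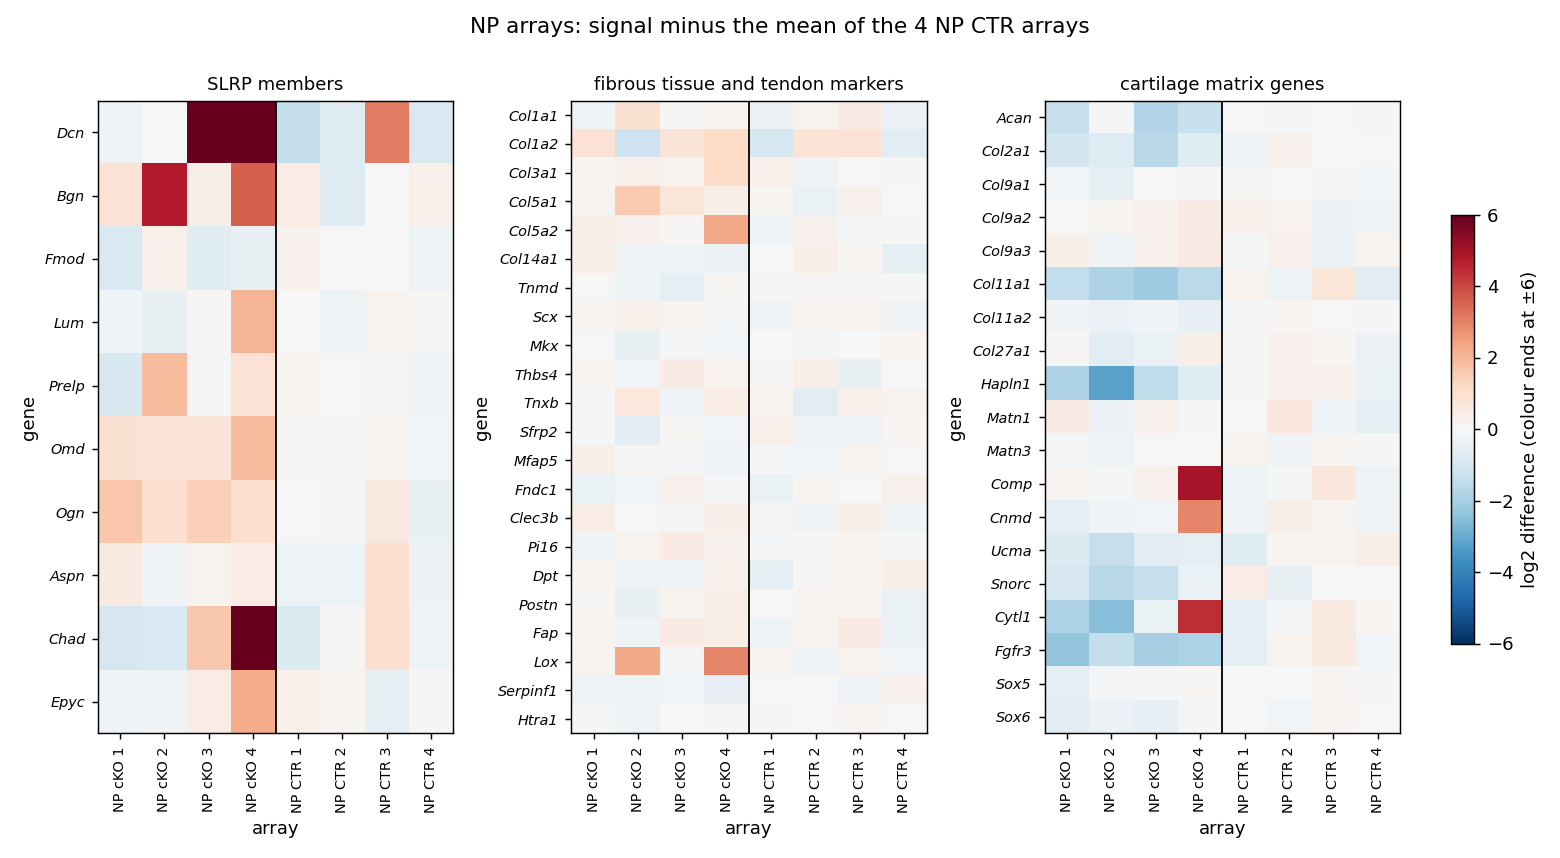
Signal of each gene (rows) on each of the 8 NP arrays (columns, NP cKO left of NP CTR) minus the mean of the 4 NP CTR arrays, on the log2 scale, with colours that end at ±6. Red is higher than the control mean. NP cKO replicate 4 is red for Dcn, Chad, Comp, Cytl1 and Cnmd and near white for Col1a1, and NP cKO replicate 2 is red for Bgn and Prelp.

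In NP CTR, replicate 3 was the highest array for 6 of the 10 genes (Dcn, Lum, Omd, Ogn, Aspn and Chad) and replicate 1 for the other 4. Dcn at 10.65 and Aspn at 7.21 stood apart from the other 3 arrays of the group. In AF cKO the highest array was replicate 2 for 6 genes and replicate 3 for 4 genes. In AF CTR it was replicate 1 or 2 for 4 genes each and replicate 3 for Dcn and Fmod. In both AF groups and in NP CTR replicate 4 was highest for no member.

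The rest of the family was examined for comparison, with 7 of 8 further genes measured. None was called between cKO and CTR in either tissue. Ecm2, the neighbour of Aspn, was 5.84, 6.03, 5.81 and 8.36 in NP cKO and 5.88, 5.19, 6.03 and 5.29 in NP CTR, against 14.36, 13.15, 15.20 and 14.32 in AF cKO and 13.41, 15.82, 15.42 and 14.20 in AF CTR. It was not well above background in either NP group, and was at least 14.9-fold lower in NP than in AF in cKO (adjusted p = 4.8e-08) and at least 19.8-fold lower in CTR animals (adjusted p = 3.9e-09 by limma). Its highest NP array was again NP cKO replicate 4. Podn (podocan) was 6.84, 10.35, 7.47 and 7.84 in NP cKO, against 6.41, 7.11, 6.80 and 7.30 in NP CTR, high in replicate 2 as were Bgn, Fmod and Prelp. It was above background on 1 of 4 NP cKO arrays and was not well above it in NP CTR or in either AF group. Kera, Optc, Nyx, Podnl1 and Chadl were not well above background in any group, so that no sizes are given for them. Between the tissues, 2 of the 7 genes (Ecm2 and Podnl1) were called lower in the NP and 1 (Nyx) higher in cKO animals, where 12.6% of all probe sets were lower. In CTR animals 4 (Ecm2, Chadl, Podn and Optc) were called lower, where 10.1% of all were. Chadl, Podn and Optc passed without being well above background in either CTR group. Leaving out each of the 8 arrays compared in turn, the calls of Ecm2 and Chadl were lost in 0 of 8 fits. The Podnl1 call was lost in 6 and the Nyx call in 4 (adjusted p up to 0.166 and 0.0694), and the Podn and Optc calls in 7 each (adjusted p up to 0.107 and 0.142 in limma).

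The collagens that these proteins bind were for the most part lower in the NP as well. Of 16 fibril and fibril-surface collagens measured, 12 were called lower in the NP in cKO animals and 12 in CTR animals. Over all probe sets 12.6% and 10.1% were called lower. Both collagen I chains and Col3a1 were not well above background in either NP group, so that bounds are given. Col1a2 was at least 203-fold lower in the NP in cKO (adjusted p = 4.8e-09) and at least 207-fold lower in CTR animals (adjusted p = 1.6e-09 in limma), and Col1a1 was at least 123-fold lower in cKO and at least 112-fold lower in CTR animals. Col3a1 was at least 28.1-fold lower in cKO and at least 5.09-fold lower in CTR animals, with 3 of 4 AF CTR arrays above background. None of the 16 was called between cKO and CTR. In the AF the 3 smallest p belonged to Col9a3 (adjusted p = 0.0776), Col2a1 (adjusted p = 0.103) and Col11a2 (adjusted p = 0.197 by limma). Col2a1, the main cartilage collagen, averaged 11.41 in AF cKO, with 3 of 4 arrays above background, and 14.13 in AF CTR.

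Genes listed for sugar chain synthesis and for sulfation were also more often called lower than higher in the NP. Of 21 genes of chondroitin and dermatan sulfate synthesis, 1 was called higher and 7 were called lower in the NP in cKO animals. In CTR animals 7 were called lower. Over all probe sets the same 12.6% and 10.1% were called lower. Csgalnact2, which starts chondroitin chains, differed by -3.09 in cKO (adjusted p = 3.9e-06) and -3.57 in CTR animals (adjusted p = 6.1e-07 in limma), with 2 of 4 arrays above background in each NP group. None of the 21 was called between cKO and CTR. Of 12 genes of keratan sulfate synthesis, tyrosine sulfation and sulfate supply, 4 were called lower in the NP in cKO animals and 6 in CTR animals. Chst1, a sulfotransferase of keratan sulfate, was at least 1.36-fold lower in the NP in cKO animals (adjusted p = 3.1e-04) and also passed in CTR animals (adjusted p = 1.2e-04 in limma), where no fold is given, because 1 of 4 AF CTR arrays was above background. With genotype 1 of the 12 was called lower in cKO in each tissue, the sulfate transporter gene Slc26a2. It passed in the NP (adjusted p = 0.0277) with both groups not well above background, and was at least 2.19-fold lower in AF cKO than in AF CTR (adjusted p = 0.00728 by limma). Papss2, which makes the sulfate donor, differed by -2.73 (SE 0.53) between AF cKO and AF CTR and missed the threshold (limma adjusted p = 0.0537).

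For each of the 10 genes the other genes most like it over the 16 arrays were found by Pearson r, which mainly reflects the split into NP and AF arrays. Chad was nearest to Comp (r = 0.993), Clec3a (0.991) and Cytl1 (0.988), all cartilage matrix or cartilage-secreted proteins. Dcn was nearest to Abi3bp (0.981), Sod3 (0.969) and Cilp (0.968). Omd was nearest to Foxc1 (0.991), Notch2 (0.984) and Cnmd (0.982), and Ogn to Fxyd1 (0.976), Fbln7 (0.972) and Gas6 (0.965). Aspn was nearest to Tlr2 (0.976), Dpt (0.975) and Emp3 (0.975), and Lum to Ptprs (0.976), Fap (0.975) and Clec11a (0.974). Bgn was nearest to Tgfb1 (0.974), Igfbp7 (0.958) and Mef2a (0.958). Prelp was nearest to Ckap4 (0.939), Ccdc80 (0.929) and Surf4 (0.929), and Epyc to Mmrn2 (0.946), Tmem176b (0.924) and H2ac1 (0.921). Fmod, whose signal differed least between tissues, had the lowest values, with Mak16 (0.919), Rhobtb3 (0.882) and Mrpl3 (0.874). No gene is on this list for more than 1 member.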

How the data were processed

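Each of the 16 disc samples was hybridised to its own 1-colour Affymetrix array. The authors deposited log2 signals that, per the labels, come from sst-RMA (RMA with a signal space transformation), and the submitters' processing notes name Transcriptome Analysis Console without a version. Per the labels the authors worked with a fold of 1.75, a p under 0.05 and the same limit on detection, but the table holds probe sets outside these limits.

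Of 28846 probe sets, 6640 controls were left out and 22206 tested, of which 19572 carry 1 symbol. Group means were fitted on all 16 arrays with limma 3.58.1 in R 4.3.3, with no change to the normalization, and a probe set was called at a Benjamini-Hochberg adjusted p under 0.05. The script was tested on simulated data. Background comes from 5222 negative control probe sets. Arrays, not read depth, limit the precision.

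Members, gene lists and alternatives were chosen with earlier results of these data known. Named genes are the members, Sox9, other family genes, up to 3 genes with the smallest p per list and comparison, and the 3 genes most like each member. Comp, Cytl1, Cnmd, Col5a2 and Lox in single NP arrays, and the genes of the last section on single arrays, were named after their values were seen.

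NP and AF arrays with 1 code in their titles come from 1 animal. Deviations of such pairs correlated with r from -0.293 to 0.348, with 3 of 8 over 0.1. An alternative fit took the animal as a block.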

Additional observations from a re-analysis of the deposited data

Results flagged for a closer look

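For the 18 genes whose signal is given array by array, the 10 members, Sox9, Podn, Ecm2, Col1a1, Col1a2, Lox, Comp and Cytl1, 7 of 72 groups of 4 arrays had 1 array far from the other 3. For independent genes chosen beforehand, about 1 in 20, or 3.6 groups, would be so by chance. These genes share their arrays, and Comp, Cytl1 and Lox were named after their values were seen. The 2 counts therefore cannot be set against each other, and nothing is concluded from them. Dcn was 10.65 in NP CTR replicate 3, above the other 3 NP CTR arrays, and Aspn was 7.21 in the same array. In NP cKO replicate 4, Omd was 6.80, Ecm2, a family relative on the same stretch of chromosome 13, was 8.36, and Comp was 11.53, each above the other 3 NP cKO arrays. Col1a2 was 6.98 in NP cKO replicate 2, below the other 3 NP cKO arrays, and Podn was 8.73 in AF cKO replicate 1, below the other 3 AF cKO arrays. Of these values, those of Dcn and Comp are above the 95th percentile of the negative control probe sets of their arrays. What sets these arrays apart was not tested.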

How the results depend on the processing

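The 50 member results, 10 genes in 5 comparisons, were recomputed under 31 alternatives, which gave 1130 values. Of these 1096 kept the side of the threshold, 23 lost a call and 11 gained one, and none of the 410 values with a call changed sign, while 40 of 720 without a call did. Under the thresholds that the labels name, an unadjusted p under 0.05 and a fold of 1.75, 4 members pass for cKO against CTR in the NP. Under the same thresholds 2 pass in the AF and 4 for the difference of these changes. That rule does not adjust for the number of probe sets. Of all 22206 probe sets, no alternative, this one included, passed more than 262 in the NP, 774 in the AF and 977 for the difference. Leaving out 1 array at a time gave 0 to 0 members in the NP, 0 to 1 in the AF (1 without AF cKO replicate 4), 0 to 0 for the difference, 8 to 9 for NP minus AF in CTR and 7 to 10 in cKO. The calls lost were those of Epyc in both genotypes and of Prelp and Fmod in cKO, and the cause was not tested. With the replicate block, whether by number or by animal, no member call changed: 0, 0, 0, 9 and 10 members in the order above. Over all probe sets the counts of 27 in the NP and 22 in the AF ranged from 10 to 262 and from 8 to 774, and that of 0 for the difference from 0 to 977. NP minus AF ranged from 2764 to 5062 in CTR, beside 4462, and from 3117 to 6607 in cKO, beside 5754. Leaving out NP cKO replicates 2 and 4 together was chosen after seeing the data. With 4 arrays a group and NP signals of Lum, Omd, Aspn, Epyc and Chad near background, small changes of these genes in the NP could not be detected.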

Other observations

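The NP cKO arrays with high Dcn or Bgn held other high genes, listed here after their values were seen. NP cKO replicate 4 lay over 1 above the 7 other NP arrays on the log2 scale for 110 probe sets, or 0.495% of all, and replicate 2 for 164, or 0.739%, while replicates 1 and 3 did so for 12 and 8. In replicate 4, Angptl7 was 16.24, higher than any other NP array by 7.47, with AF means of 15.96 in cKO and 14.02 in CTR. Vcan, the large aggregating proteoglycan versican, was 15.68, higher by 6.50, and Prg4, the lubricating proteoglycan of joint surfaces, was 15.35, higher by 4.93. Abi3bp was 19.11, higher by 5.13, and Sod3, an extracellular superoxide dismutase, was 13.24, higher by 6.67, and both are among the genes most like Dcn over the 16 arrays. C4b, a complement component, was 12.67, higher by 4.54, with AF means of 10.15 in cKO and 8.77 in CTR.

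In replicate 2, Peg10 was 12.34, higher than any other NP array by 5.10, although its means were 6.67 in AF cKO and 6.15 in AF CTR. Sdc1, a cell surface heparan sulfate proteoglycan, was 14.08, higher by 4.14, and Fbln2, a matrix glycoprotein, was 14.00, higher by 3.73. Tagln, a smooth muscle actin-binding protein, was 14.92, higher by 2.48, with means of 9.70 in AF cKO and 8.60 in AF CTR. Fabp7 at 13.70 and Slc6a12 at 13.51 were likewise above their AF means, which were 9.56 and 8.89 in AF cKO and 8.63 and 8.16 in AF CTR. Tgfbi, a matrix adhesion protein, was 12.61, higher by 3.24, and below its AF means of 14.22 in cKO and 14.19 in CTR. The source of these signals was not tested.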
